A study of Mus musculus with 2 samples.

Results

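The proteasome subunit genes were followed in hippocampal RNA of mice fed astaxanthin and of control mice. Members were the genes whose mouse symbol starts with Psma, Psmb, Psmc, Psmd or Psme followed by a digit and whose RefSeq accession is carried by a probe of the array. This gave 44 genes out of 13318 genes with a symbol, and of 23603 genes and transcripts in all, that passed the brightness filter in both RNAs on each array. Of the 44, 42 encode subunits, assembly chaperones or activators of the proteasome, while Psmc3ip (a cofactor of meiotic recombination) and Psme3ip1 (a binding partner of the activator Psme3) only share the symbol. All 44 passed the brightness filter, so none was lost through a low signal. Psma8, Psme2b and the pseudogenes of this family had no probe matched by accession and were not analysed here.

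The ASX group ate chow in powder form for 4 weeks that contained 0.5% by weight of a powder that holds 2% astaxanthin, a red carotenoid of the alga Haematococcus pluvialis. The control group received the same chow with 0% of it and a placebo powder. All mice were male C57BL/6J, 11 weeks old and 26 to 28 g at the start, caged singly, with 1 week of acclimatization. ASX RNA was labelled with Cy5 on array 1 and with Cy3 on array 2, each time beside control RNA in the other dye. The titles name 4 mice, but no label says how their RNA was combined, so both arrays count here as 1 replicate, a repeat of the same pair of RNA samples with the dyes swapped. With 1 replicate there is no test of the diet, and an SD between the arrays is taken here as technical.

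The proteasome is the barrel-shaped protease that degrades ubiquitin-tagged proteins in the cytosol and nucleus. Its 20S core is a stack of rings of alpha and beta subunits, with the cutting sites on the inner face of the beta rings, and the 19S particle at its ends binds, unfolds and feeds in the substrate. In neurons the proteasome also takes part in the turnover of synaptic proteins during plasticity. The transcription factor Nfe2l1 raises proteasome gene transcription in mouse and human cells when proteasome activity falls, through antioxidant response elements in their promoters.

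That element was searched in the promoters of the members, from 250 bases before to 50 bases after the transcription start, with RefSeq sequence of build GRCm38.p6. The motif TGACNNNGC, read on both strands, was present in 6 of the 38 members with a promoter entry (15.8%) and in 14.3% of the 10635 measured genes with one. The 6 were Psmb5, Psmb6, Psmc6, Psmd9, Psmd12 and Psme4. Their median of the mean log2 ratio of ASX over control was 0.00028, and that of the 32 members without the motif was -0.043. Each of the 6 had opposite signs on the arrays, as 59.1% of the members and 59.3% of all genes with a symbol did. The contrast rests on few genes and was not tested. The windows of both catalytic subunits that hold the motif and of the 2 members with the highest mean ratio, Psmd9 and Psme4, are shown with the match in capitals. They lie at chr14:54617946-54618245 on the minus strand (Psmb5), chr11:70525107-70525406 on the plus strand (Psmb6), chr5:123227940-123228239 on the plus strand (Psmd9) and chr11:30771525-30771824 on the plus strand (Psme4). The match begins 47 bases before the start of Psmb5, 9 before that of Psmb6, 31 before that of Psmd9 and 7 before that of Psme4, where it reads on the opposite strand.
Psmb5: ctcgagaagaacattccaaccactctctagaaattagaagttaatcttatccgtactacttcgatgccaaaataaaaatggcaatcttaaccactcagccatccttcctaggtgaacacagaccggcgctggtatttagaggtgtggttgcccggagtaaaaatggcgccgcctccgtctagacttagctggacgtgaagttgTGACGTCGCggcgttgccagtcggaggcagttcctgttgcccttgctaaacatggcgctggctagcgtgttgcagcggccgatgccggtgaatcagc
Psmb6: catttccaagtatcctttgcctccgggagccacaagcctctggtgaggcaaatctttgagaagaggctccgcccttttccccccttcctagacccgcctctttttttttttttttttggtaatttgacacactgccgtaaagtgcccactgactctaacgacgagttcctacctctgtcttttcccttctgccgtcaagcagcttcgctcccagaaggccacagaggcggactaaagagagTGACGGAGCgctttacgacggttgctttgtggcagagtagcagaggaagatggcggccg
Psmd9: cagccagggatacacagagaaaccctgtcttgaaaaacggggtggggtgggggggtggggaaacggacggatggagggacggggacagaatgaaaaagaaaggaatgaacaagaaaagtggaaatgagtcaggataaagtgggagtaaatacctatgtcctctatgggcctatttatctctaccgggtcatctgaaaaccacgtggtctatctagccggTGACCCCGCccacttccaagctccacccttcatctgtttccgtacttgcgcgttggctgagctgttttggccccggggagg
Psme4: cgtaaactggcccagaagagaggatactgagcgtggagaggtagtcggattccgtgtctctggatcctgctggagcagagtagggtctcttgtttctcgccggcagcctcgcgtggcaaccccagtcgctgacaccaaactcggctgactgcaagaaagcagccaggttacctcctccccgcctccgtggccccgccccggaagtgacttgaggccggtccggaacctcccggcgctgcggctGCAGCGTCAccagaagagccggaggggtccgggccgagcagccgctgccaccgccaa

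Other promoter letters also stood near their general share. CCAAT boxes (CCAAT, both strands) were in 39.5% of the member promoters and 38.4% of those of measured genes, and GC boxes (GGGCGG, both strands) in 57.9% and 60.6%. The median of the mean log2 ratios was -0.039 for members with a CCAAT box and -0.037 for those without. For the GC box these were -0.037 and -0.043. A match describes letters in the window and shows no binding.

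The proteasome genes were close to equal in the ASX RNA and the control RNA. None of the 44 reached 1.2-fold in the same diet direction on both arrays, let alone 1.5-fold. Over all genes with a symbol, 0.233% were at least 1.2-fold higher on each array and 0.33% at least 1.2-fold lower, and 0.03% were 1.5-fold apart in each direction. At such low shares, a count of 0 among 44 genes does not set the members apart. The lowest mean log2 ratio was -0.13 for Psmb2 and the highest 0.09 for Psme4, so that all 44 means lay within 1.1-fold, as 88% of all genes with a symbol did. With the mean over all probes of a gene, Psme4 had 0.20 and lay outside that range. The means of the members had an SD of 0.054 across genes, against 0.096 for all genes with a symbol. It was 0.080 for the 6377 of them between the 10% and 90% points of the members' brightness, which were dimmer in the median. For other complexes it was similar, at 0.058 for cytosolic ribosomal protein, 0.057 for respiratory chain and 0.044 for chaperonin CCT genes.

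What lean there was ran towards the control RNA. The median of the mean log2 ratios was -0.039 over the members and -0.019 over all genes with a symbol. In the mean of the arrays 34 members (77.3%) were below 0 and 10 above, and 59.5% of all genes with a symbol were below 0. On both arrays, 18 of the 44 (40.9%) were below 0 and 0 above, set beside a background of 26.4% below and 14.3% above. The remaining 26 had opposite signs on the 2 arrays. The members' median was -0.079 on array 1 and -0.0037 on array 2, so array 1 carried nearly all of the lean, and on array 2 alone the members stood slightly above the median of all genes, which was -0.017. The difference of the medians of members and all genes, -0.020, was smaller than its SD between the arrays, 0.047.

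**Figure D1:**
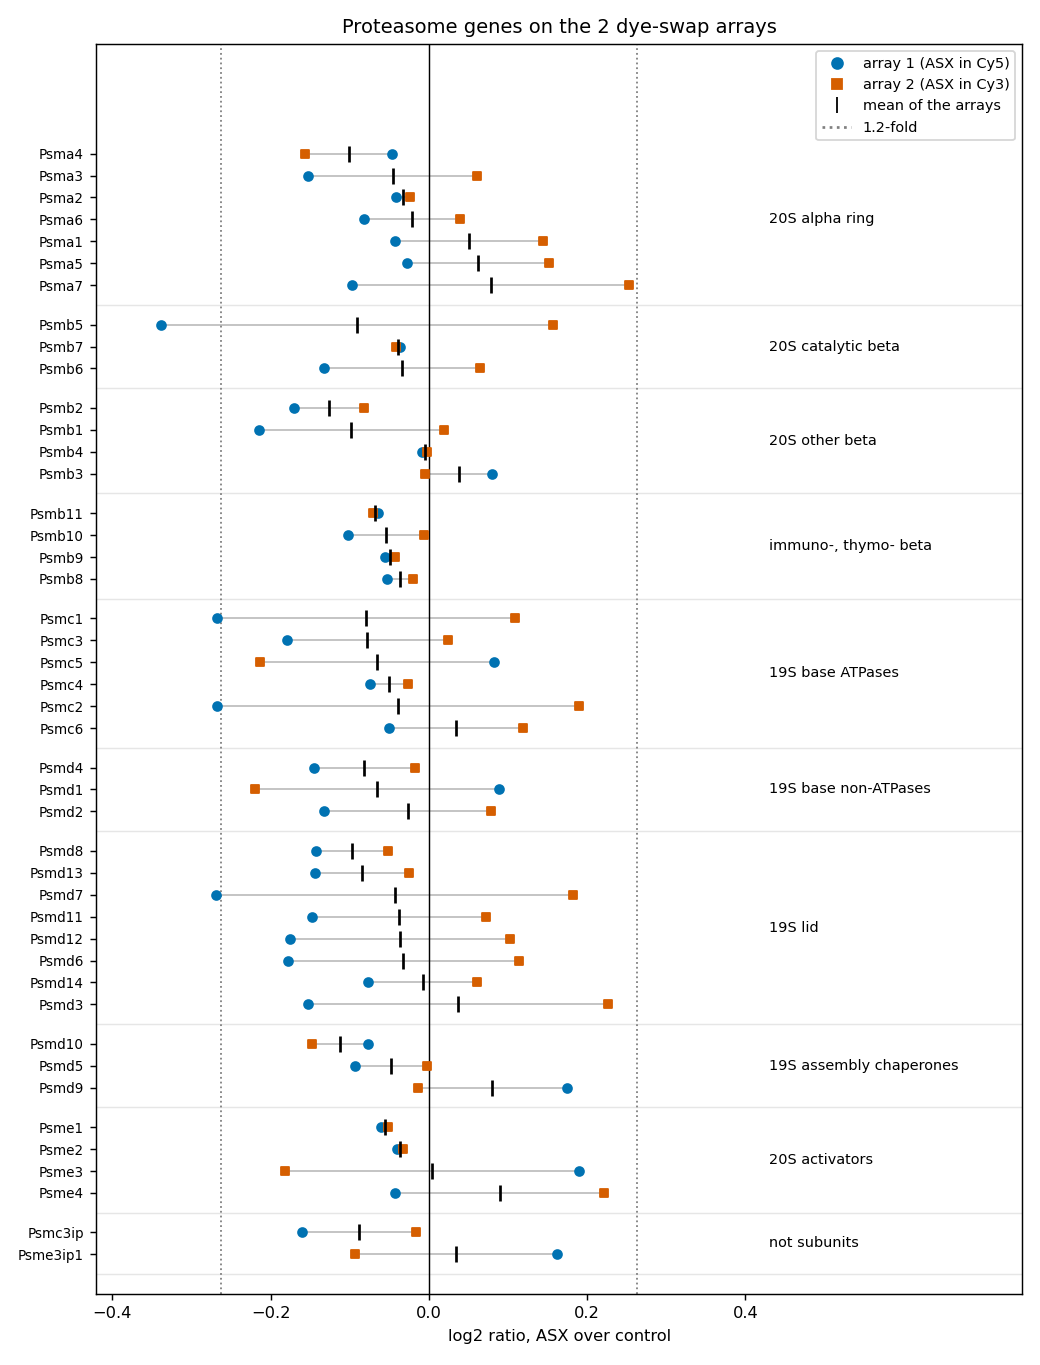
Log2 ratio of ASX over control on the horizontal axis for each of the 44 genes (rows, grouped by role): circles are array 1, squares array 2, vertical ticks their mean and dotted lines 1.2-fold. All means lie between -0.13 (Psmb2) and 0.09 (Psme4), no gene is past a dotted line with both symbols, and many pairs of symbols straddle 0.

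The alpha subunits form the outer rings of the core, whose tails close the gate to the chamber. Of the 7 measured, 2 (28.6%) were below 0 on both arrays, Psma2 and Psma4, as 26.4% of all genes with a symbol were. The other 5 (71.4%) were below 0 on array 1 and above 0 on array 2, against 30.6% of all genes with a symbol. Psma7 had the highest mean. Its log2 signals were 14.30 on array 1 and 14.69 on array 2 in the ASX RNA, against 14.39 and 14.43 in the control RNA. The ASX signal was the lower one on array 1 and the higher one on array 2, with log2 ratios of -0.10 and 0.25 and a mean of 0.078 ± 0.25 (SD, 2 arrays). Psma4, whose tail is central to the closed gate in yeast, had the lowest mean. Its log2 signals were 12.56 and 12.53 in the ASX RNA, against 12.61 and 12.69 in the control RNA. It was lower in the ASX RNA on both arrays, with a mean log2 ratio of -0.10 ± 0.077. Psma1, Psma2, Psma3, Psma5 and Psma6 had means between -0.046 (Psma3) and 0.062 (Psma5).

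The 3 catalytic beta subunits Psmb5, Psmb6 and Psmb7 carry the chymotrypsin-like, caspase-like and trypsin-like sites. Psmb5 differed most between the arrays of all members. Its log2 signals were 14.00 and 14.24 in the ASX RNA, against 14.34 and 14.08 in the control RNA. The ratio of -0.34 on array 1 turned to 0.16 on array 2, a mean of -0.091 ± 0.35, with the dimmer signal in Cy5 on each array. Psmb6 had -0.13 on array 1 and 0.065 on array 2, a mean of -0.034 ± 0.14. Psmb7 was the closest to identical on both arrays among all members, with -0.036 and -0.042. Its log2 signals were 12.86 and 12.71 in the ASX RNA, against 12.90 and 12.75 in the control RNA.

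Interferon-gamma makes cells build the immunoproteasome, in which Psmb8, Psmb9 and Psmb10 take the places of Psmb5, Psmb6 and Psmb7. These counterparts were not higher in the ASX RNA on either array. Psmb8 had log2 signals of 9.27 and 9.20 in the ASX RNA, against 9.32 and 9.22 in the control RNA, and a mean log2 ratio of -0.036 ± 0.023. Psmb9 had log2 ratios of -0.055 and -0.042, and a mean of -0.049 ± 0.0090. Psmb10 had 13.72 and 13.97 in the ASX RNA, against 13.83 and 13.98 in the control RNA, and a mean of -0.054 ± 0.067. All 3 were below 0 on both arrays by small amounts, as 26.4% of all genes with a symbol were. With the scanner's own log ratio the means were -0.058 for Psmb8 and -0.074 for Psmb9. Psmb11, the thymus-specific counterpart of Psmb5, had the dimmest probe of all members, with log2 signals of 7.24 and 7.41 in the ASX RNA, against 7.31 and 7.48 in the control RNA. Its other probe did not pass the brightness filter.

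Genes that interferon induces together with the immunoproteasome, and genes of peptide loading on MHC class I, did not reach 1.2-fold either. Of the 18 listed, 15 were measured, with a median of -0.0077. On both arrays 2 (13.3%) were above 0 (background 14.3%) and 2 (13.3%) below (background 26.4%). Ifit3, an interferon-induced gene, had the largest mean of them at 0.20 (0.27 and 0.12 on the arrays), followed by Ifi27 at 0.12. Tap1, the peptide transporter gene next to Psmb8 and Psmb9, had -0.048 and 0.19. The 10 microglial markers, all measured, had a median of -0.034. On both arrays 3 (30%) were below 0 (background 26.4%) and 2 (20%) above (background 14.3%). Whether the number of such cells bears on these values was not tested; in bulk RNA, fewer cells of a type and less RNA per cell cannot be told apart.

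The other 4 beta subunits, Psmb1, Psmb2, Psmb3 and Psmb4, build the beta rings without a cutting site. Psmb2 had the lowest mean of all members. Its log2 signals were 10.23 and 10.27 in the ASX RNA, against 10.40 and 10.35 in the control RNA. It was lower in the ASX RNA on both arrays, at -0.17 and -0.082, a mean ratio of 0.916. Psmb3 had 0.080 and -0.0049, the highest mean of the 4. Psmb4, which together with Psmb2 has been proposed as a human reference gene for its even expression, had -0.0089 and -0.0022. Psmb1 had a mean of -0.098 ± 0.17, below 0 on array 1 alone.

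The 6 ATPases Psmc1 to Psmc6 form the ring of the 19S base that unfolds substrates, and the tails of some of them, in yeast those of the Psmc1 and Psmc3 counterparts, open the gate of the core. Their median was -0.058, but -0.13 on array 1 and 0.066 on array 2. Psmc1 had the lowest mean, with log2 signals of 13.74 and 13.89 in the ASX RNA, against 14.01 and 13.78 in the control RNA. Psmc6 had the highest, with 13.97 and 14.05 in the ASX RNA, against 14.02 and 13.93 in the control RNA. Both were lower in the ASX RNA on array 1 and higher on array 2. By the brightest probes, Psmc4 alone was below 0 on both arrays (-0.074 and -0.026), and Psmc5 alone was above 0 on array 1 and below 0 on array 2. The dimmer Psmc5 probe was below 0 on both, at -0.053 and -0.048.

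The base also holds Psmd1 and Psmd2, its large scaffolds, and Psmd4, a receptor for ubiquitin chains. Psmd4 had the lowest mean of the 3, -0.082, with log2 signals of 13.16 on each array in the ASX RNA, against 13.30 and 13.18 in the control RNA. Psmd2 had the highest at -0.027, from -0.13 and 0.079. Psmd1 was one of 6 members above 0 on array 1 and below 0 on array 2, with 0.088 and -0.22.

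The lid removes ubiquitin from the substrate through Psmd14, its deubiquitinase, which pairs with Psmd7. Among its 8 genes, 6 (75%) were below 0 on array 1 and above 0 on array 2, against 30.6% of all genes with a symbol. Psmd8 and Psmd13 (25%) were below 0 on both, as 26.4% of all genes with a symbol were. Psmd8 had the lowest mean, with log2 signals of 12.63 and 12.61 in the ASX RNA, against 12.77 and 12.66 in the control RNA. Psmd3 had the highest mean, 0.036 ± 0.27. The ratios of Psmd8 kept their side (-0.14 and -0.052), whereas those of Psmd3 changed it (-0.15 and 0.23). Psmd14 had -0.076 and 0.061, and Psmd6, Psmd7, Psmd11 and Psmd12 had means between -0.043 and -0.032.

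Psmd5, Psmd9 and Psmd10 are chaperones that help to assemble the base and leave the finished particle. Psmd10, also known as gankyrin, had log2 signals of 9.97 and 10.02 in the ASX RNA, against 10.05 and 10.17 in the control RNA. It was lower in the ASX RNA on both arrays, with a mean log2 ratio of -0.11 ± 0.051. Psmd9 had 10.38 and 10.16 in the ASX RNA, against 10.21 and 10.18 in the control RNA, a ratio of 0.17 on array 1 and -0.014 on array 2. Psmd5 had a mean of -0.048.

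Activators cap the core in place of the 19S particle. Psme1 and Psme2 form the ring induced by interferon-gamma, Psme3 forms a nuclear one, and Psme4 is a large single-chain activator. Psme1 and the brightest probe of Psme2 were slightly below 0 on both arrays, with means of -0.056 ± 0.0065 and -0.036 ± 0.0046. The dimmer Psme2 probe was lower, at -0.14 and -0.11, a mean of -0.13 ± 0.024. Psme3 had opposite signs, at 0.19 and -0.18. Psme4 had the highest mean of all members, with log2 signals of 12.20 and 12.40 in the ASX RNA, against 12.24 and 12.18 in the control RNA. Its lead came from array 2 alone, with ratios of -0.042 and 0.22. Of the 2 genes that share the symbol without being subunits, Psmc3ip had a mean of -0.088 (-0.16 and -0.016) and Psme3ip1 one of 0.034 (0.16 and -0.094).

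**Figure D2:**
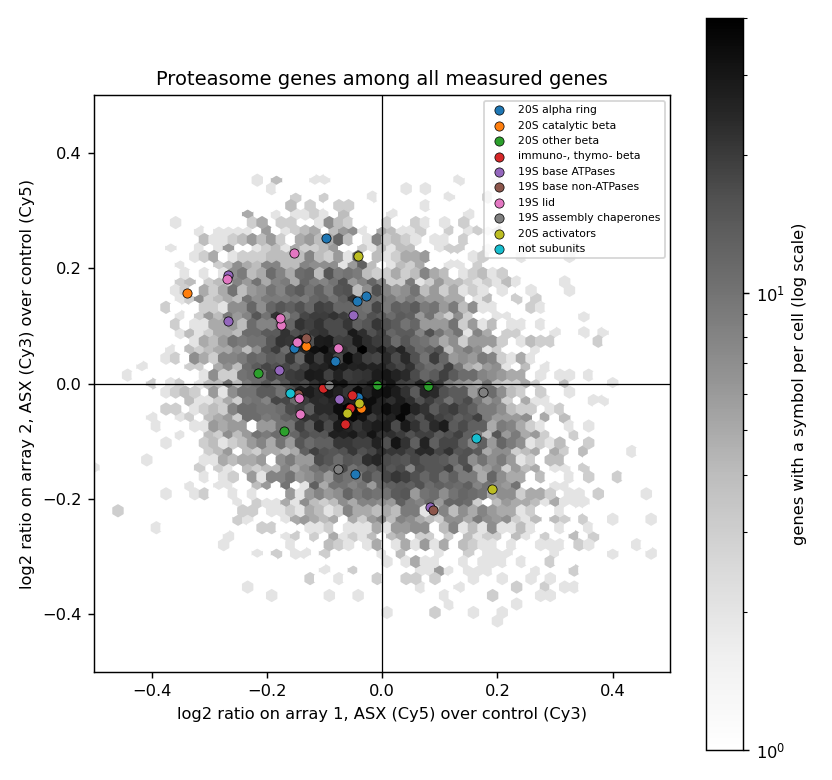
Log2 ratio on array 1 (horizontal) against array 2 (vertical), ASX over control: coloured points are the 44 proteasome genes by role and grey cells count all genes with a symbol (log scale). The upper right part, above 0 on both arrays, holds 0 members, the lower left 18, the upper left 20 and the lower right 6.

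The arrays gave opposite signs for 26 members (59.1%), as they did for 59.3% of all genes with a symbol. With the dyes swapped, a gene of opposite signs was brighter in the same dye on both arrays, whatever the source of the difference. The signal was dimmer in Cy5 for 20 members (45.5%), and brighter in Cy5 for 6 (13.6%); over all genes with a symbol the shares were 30.6% and 28.7%. Psmb5, Psmc2 and Psmd7 were furthest apart between the arrays, with ratios of -0.27 and 0.19 for Psmc2 and -0.27 and 0.18 for Psmd7. Across the 44 members the 2 ratios correlated with Pearson's r = -0.55 and Spearman's rho = -0.48, a description. Over the 6377 genes in the brightness range taken from the members these were -0.34 and -0.37. Their median log2 brightness was 11.76, against 13.35 for the members, so this comparison does not account for brightness. Genes on the same arrays share dye, slide and scan and are not independent. The SD between the arrays had a median of 0.12 over the members and 0.11 over all genes with a symbol, close to the largest member mean in size. The mean exceeded this SD for 14 members, all of them below 0 (31.8%), as 20.2% of all genes with a symbol did below 0 and 11.1% above.

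The scanner software's own error model covers single spots and not the diet. Its deposited p-values were read for the brightest probe of each gene only. None of these probes of the 44 members had a p-value under 0.01 on either array. Over all genes with a symbol, 1.21% had one on array 1 and 0.833% on array 2. At these shares, 0 among 44 genes does not set the members apart. The lowest deposited p-value among these member probes was 0.104 on array 1 (Psmb5) and 0.181 on array 2 (Psmd3). The other probes of the members, among them the dimmer ones of Psme4, were not checked.

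Probes for the same gene gave a second reading. Of the 44 members, 15 had several probes, and 14 of them more than 1 above background, which gave 16 further probes. Their means had the sign of the brightest probe in 8 cases and the opposite sign in 8, with a median distance of 0.075. Those of opposite sign belonged to Psmd2, Psmd7, Psmd9, Psmd12, Psmd14, Psme3ip1 and Psme4. The brightest probe of Psmd12 had a mean of -0.037 and the others 0.047 and 0.096, the last above 0 on both arrays. From the brightest to the dimmer probe the mean turned from -0.027 to 0.033 in Psmd2 and from -0.0077 to 0.0052 in Psmd14. In Psmd7 it turned from -0.043 to 0.025, and the dimmer probe again had opposite signs on the arrays (-0.20 and 0.25). Probes of Psma4, Psmb8, Psmc4, Psmc5 and Psme2 were below 0 in the mean throughout. Those of Psmb3 were above 0 in the mean (0.037 and 0.049), each with opposite signs on the arrays. Both probes of Psmc3ip were below 0 on both arrays. The high value of Psmd9 was not repeated, since its other probe had -0.052 and -0.049.

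A single reading of a member passed 1.2-fold on both arrays. It came from the dimmest of the 3 Psme4 probes, with log2 signals of 8.27 and 8.40 in the ASX RNA, against 7.87 and 7.78 in the control RNA. It was higher in the ASX RNA on both arrays, by 0.40 and 0.62, a mean of 0.51 ± 0.16. Of all 19044 probes with a symbol above background, 0.347% were at least 1.2-fold higher on each array and 0.341% at least 1.2-fold lower. The other dim Psme4 probe had -0.050 and 0.031, and the bright one the values above. The probe sequences were not used here, and which transcripts of Psme4 each reads was not tested.

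**Figure D3:**
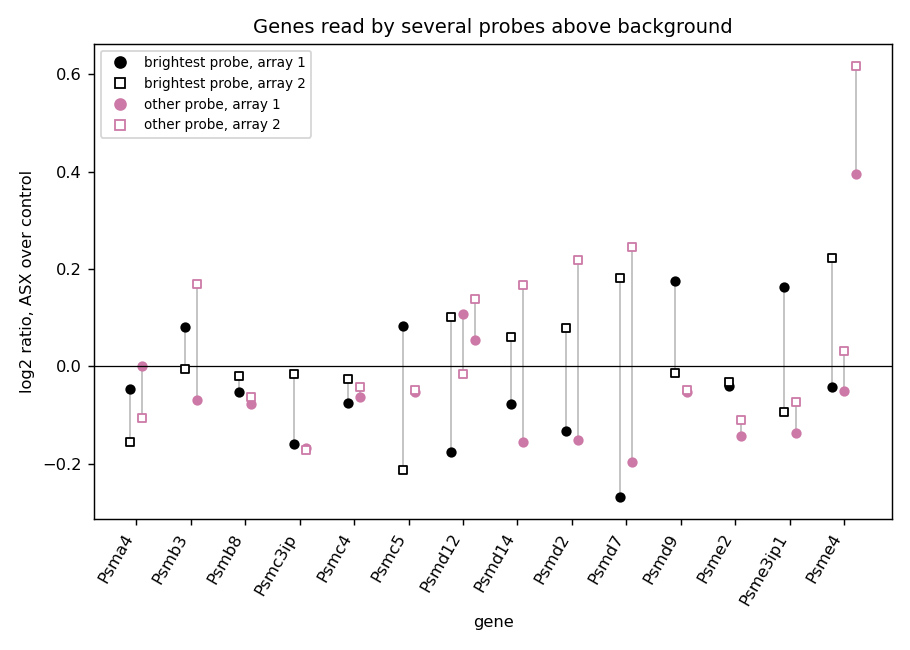
Log2 ratio of ASX over control (vertical) for the 14 genes with several probes above background: filled circles are array 1, open squares array 2, black the brightest probe and pink the others. One Psme4 probe, at 0.40 and 0.62, stands apart from the rest, which lie between -0.27 and 0.25.

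Other genes of the pathway were as close to equal. Of 16 further subunits, assembly factors and regulators, 13 were measured, 1 of them the member Psme3ip1, with a median of -0.045, and none passed 1.2-fold. Psmg3, a chaperone of core assembly, had the largest mean at -0.16 (-0.27 and -0.046), followed by Psmg1, another one, at -0.081. Pomp, the core's maturation factor, had 0.0093. The 13 genes of ubiquitin, its E1 and E2 enzymes and p97 had a median of 0.020, with Uba6 at -0.14 and Ubb at 0.11, and 9 of them (69.2%) were above 0 on array 1 and below 0 on array 2, where 28.7% of all genes with a symbol were. Among the 11 measured substrate shuttles and genes of the Nfe2l1 pathway, the median was 8.1e-06, and Sqstm1, a shuttle of autophagy and proteasome substrates, had a mean of 0.055. Nfe2l1 itself had -0.12 and 0.033. None of these lists held a member past 1.2-fold.

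Other complexes of many subunits gave similar ranges. The 82 cytosolic ribosomal protein genes had a median of -0.0066, the 78 respiratory chain genes -0.025 and the 7 genes of the chaperonin CCT -0.041, against -0.039 for the proteasome. On both arrays 22% of the ribosomal, 26.9% of the respiratory and 28.6% of the chaperonin genes were below 0, and 7.32%, 3.85% and 0% above. The dye part (array 1 minus array 2, divided by 2) differed in sign: its median was -0.060 for the proteasome genes and -0.089 for the chaperonin genes, but 0.025 for the ribosomal and 0.048 for the respiratory ones. The sets also differed in median log2 brightness, at 13.35, 13.31, 15.66 and 15.15 in the same order. Whether brightness bears on the dye part was not tested. These medians are descriptions of 1 pair of RNA samples, and no difference between the sets was tested.

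**Figure D4:**
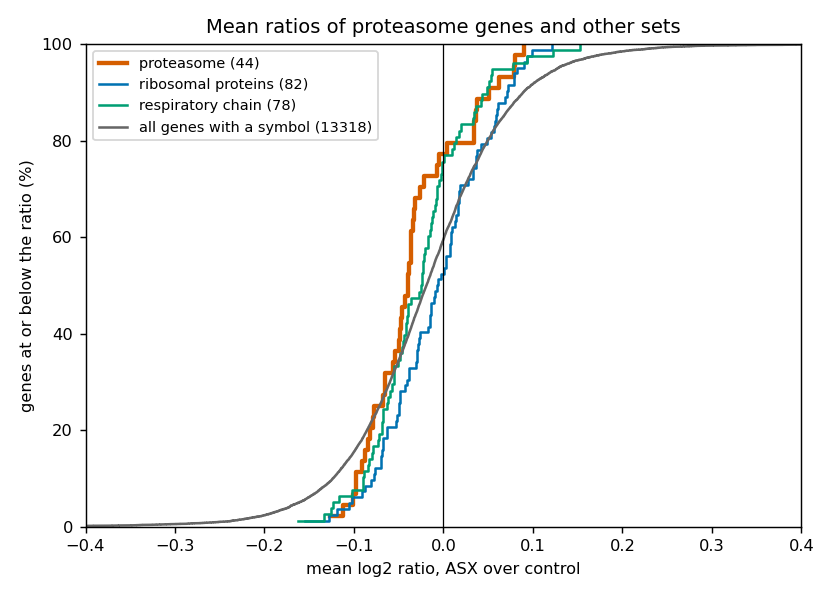
Share of genes (vertical, %) at or below a mean log2 ratio of ASX over control (horizontal) for 44 proteasome, 82 ribosomal and 78 respiratory chain genes and all 13318 genes with a symbol. The proteasome curve is steep and reaches 77.3% at 0, close to the respiratory chain and above the 59.5% of all genes.

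Between 75.8% and 78.2% of the 43379 spots for mouse transcripts were well above background, depending on RNA and array. Of 10 markers of hippocampal neurons, 8 were measured, among them Prox1 of dentate granule cells and Wfs1 of CA1, with a median of 0.037. Markers of astrocytes, oligodendrocytes and endothelial cells had medians between -0.061 and -0.028 and none past 1.2-fold. The 8 meningeal markers had a median of 0.21, with 6 (75%) above 0 on both arrays (background 14.3%). The 8 choroid plexus markers had one of -0.068, with 5 (62.5%) below 0 on both (background 26.4%). Among 7 measured blood genes, S100a8 and S100a9 were at least 1.2-fold higher and Hba-a1 and Hbb-bt at least 1.2-fold lower in the ASX RNA on both arrays. The part of these cells in the small lean of the proteasome genes was not tested.

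Taken alone, array 1 had 38 members below 0 (background 57%) and 6 above (background 43%), with 4 at least 1.2-fold lower (background 5.32%). Array 2 alone had 24 below 0 (background 55.1%) and 20 above (background 44.9%). The count of 0 members above 0 on both arrays became 1 with an offset of 16 (background 14.3%), 1 with the scanner's log ratio or the deposited value table (background 14.1%), and 2 with the mean or the median over probes (background 15.4%).

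The lean depended on the scaling. With each array centred on its median and no loess, the median of all genes with a symbol moved to -0.16 and that of the members to -0.25. Then 39 members were below 0 on both arrays (background 61.4%) and 3 were at least 1.2-fold lower (background 3.6%). Centring on the spike-in spots moved the medians to -0.36 for all genes and -0.46 for the members, 44 members were below 0 on both arrays (background 81.9%) and 30 were at least 1.2-fold lower (background 31%). In both cases the genes in the brightness range taken from the members, dimmer than the members in the median, moved along. Their median ratio was -0.21 with median centring and -0.41 with spike-in centring. The medians of the ribosomal genes were -0.24 and -0.45.

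**Figure D5:**
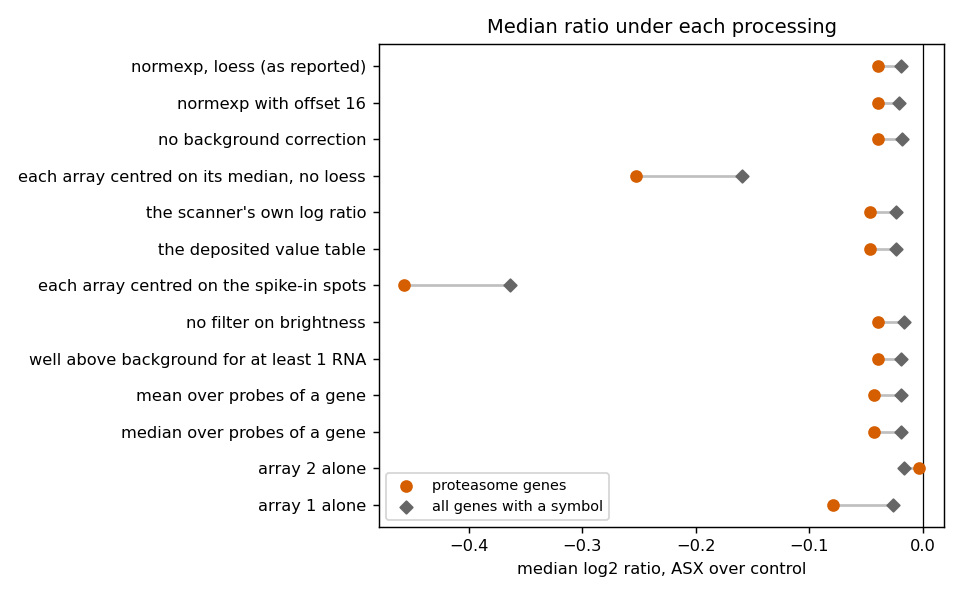
Median log2 ratio of ASX over control (horizontal) under each processing (rows) for the proteasome genes (circles) and all genes with a symbol (diamonds). The circles lie at -0.25 with median centring and -0.46 with spike-in centring, left of the diamonds at -0.16 and -0.36, and close to -0.04 under the other settings with both arrays.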

How the data were processed

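The authors' scanner files came from Agilent Feature Extraction 11.0.1.1, per the file headers. From them the deposited median pixel intensity per channel and the median local background were taken, neither normalized. The deposited log10 ratio, per the file headers, was processed Cy5 over processed Cy3, after the software's background subtraction and dye normalization. The deposited p-value beside a ratio is that of the software's model of spot error. The deposited value table held the same log10 ratios, not turned for the dye swap (medians 0.005 and 0.0083), within 5e-08.

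In limma 3.58.1 (R 4.3.3), normexp (offset 50) corrected the background and loess the dye trend within an array, the 1639 control spots having weight 0. The 3 outlier spots were left out, no spot was saturated, and both arrays lay on 1 slide. All log2 ratios run as ASX over control, averaged over repeated spots (41174 probes). Accessions were named, without version, through a RefSeq table of GRCm38.p6 (23374 probes matched). Each gene is read by its brightest probe that passed the brightness filter, which asked both RNAs to be well above background on each array (30081 probes, 73.1%). Signals of one RNA came from loess and Aquantile. The array was designed on another build, so no gene coordinates are given; promoter windows are those of RefSeq on GRCm38.p6.

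The members, lists and rules were chosen with earlier results of these data known. Every member is named, and values are given for the highest and lowest of each role and for the catalytic pairs; from other lists up to 4 genes past 1.2-fold or the 2 largest means, with marker lists summarised; some genes of these lists are not reported here. Tap1, Pomp, Nfe2l1, Prox1 and Wfs1, and further members, were added after their values were seen. The procedure was tested on simulated data. Alternatives changed background, scaling, filter, probe choice, members and arrays.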

Additional observations from a re-analysis of the deposited data

How the results depend on the processing

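With an offset of 16, without background correction, without a brightness filter, with the filter asking for a single RNA, and with the mean or median over probes, the members' median and its distance from all genes moved by less than the SD between the arrays, and so they did with the scanner's own log ratio and the value table, which repeats it. The count above 0 on both arrays was 1 with an offset of 16 (background 14.3%). It was 1 with the scanner's log ratio and the value table (background 14.1%). With the mean and with the median over probes it was 2 (background 15.4%). Median centring gave a members' median of -0.25 and a distance of -0.093 from all genes. With it 39 members were below 0 on both arrays (background 61.4%) and 3 at least 1.2-fold lower (background 3.6%). Spike-in centring gave -0.46 and -0.093, with 44 below 0 (background 81.9%) and 30 at least 1.2-fold lower (background 31%). Of 33 other values (role medians and members named by the rule), 28 moved beyond the SD between arrays with median centring and all 33 with spike-in centring; 5 moved with the scanner's log ratio and with the value table, 2 with the mean and with the median over probes, and 1 with an offset of 16. With the scanner's log ratio Psmb11 had -0.14, Psmb9 -0.074, Psmb8 -0.058, Psmb6 -0.019, Psmd2 -0.013, Psmc3ip -0.14 and Psme3ip1 0.012. With the mean over probes Psme4 had 0.20, Psmd9 0.015, Psmd2 0.0034 and Psme3ip1 -0.036, the last 2 changing sign. The causes were not tested. Leaving out Psmc3ip, or, chosen after seeing the data, Psmc3ip and Psme3ip1, left 17 members below 0 on both arrays (background 26.4%). On a single array the median ran from -0.079 to -0.0037, and its distance from all genes from -0.053 to 0.013. On array 1, 38 members were below 0 (background 57%) and 6 above (background 43%). On array 2 these were 24 (background 55.1%) and 20 (background 44.9%). Members past 1.2-fold ran from 0 to 4 (4 on array 1, background 5.32% lower). A slide block was not run, since both arrays lay on 1 slide. No paired analysis was possible because the arrays form 1 replicate. The number of arrays limits the precision.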
